A study of Mus musculus with 4 samples.

Results

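The lipid droplet coat genes described here are 10 genes whose proteins sit on, build or regulate the surface of the lipid droplet: Plin2, Plin3, Plin4, Plin5, Cidea, Cideb, Cidec, G0s2, Hsd17b13 and Fitm2. They were chosen by symbol, and all 10 were found among the 22155 symbols of a table of read counts from whole mouse liver. The gavage group, labelled gavage 9 hour, held 2 libraries of wild-type C57BL/6 mice, 8 to 10 weeks of age, that received a Lieber-DeCarli liquid diet with 5% ethanol for 10 days and then 1 large dose of ethanol, 5 g for each kg of body weight, given through a stomach tube (gavage). Their livers were removed 9 h after that binge. The other group, ethanol alone, held 2 libraries of mice of the same strain, genotype and age on the same diet, with no gavage by their titles and treatment labels, although the protocol text is the same for all 4 samples and includes the binge. Ethanol feeding is therefore shared by both groups, and the comparison asks what the binge adds to it. The labels mention neither a control gavage nor the sex of the mice nor the time of day at death. They also do not say whether replicates were different mice, and p-values here measure only the spread among these 4 samples, which the labels do not trace to animals.

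A lipid droplet is a core of triglyceride and sterol ester under a monolayer of phospholipid, and its coat decides which enzymes reach that core. Perilipins shield the stored fat from lipases or tether them. CIDE proteins gather at the contact between droplets and pass lipid from the smaller to the larger, and in hepatocytes Cideb also takes part in the loading of secreted lipoproteins. G0s2 inhibits Pnpla2, the lipase that starts triglyceride breakdown, Hsd17b13 is a droplet protein of hepatocytes, and Fitm2 acts in the endoplasmic reticulum where droplets bud. The liver stores fat in such droplets during alcohol exposure.

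The sequence before the annotated starts of Cidec and Plin2 is shown first, because these were the 2 coat genes with the largest log2 fold change of gavage over ethanol alone among those averaging at least 10 CPM (counts scaled by library size, the usual unit of normalised read counts). RefSeq lists 1 start for Plin2 and 2 for Cidec, all on the minus strand of GRCm38.p6. The 250 bases before each start, 5′ to 3′, lie at chr4:86670060-86670309 for Plin2, at chr6:113435761-113436010 for the upstream start of Cidec and at chr6:113434765-113435014 for its downstream start. Capitals mark AGGTCA, the core motif bound by nuclear receptors such as the PPAR proteins, on either strand.
Plin2: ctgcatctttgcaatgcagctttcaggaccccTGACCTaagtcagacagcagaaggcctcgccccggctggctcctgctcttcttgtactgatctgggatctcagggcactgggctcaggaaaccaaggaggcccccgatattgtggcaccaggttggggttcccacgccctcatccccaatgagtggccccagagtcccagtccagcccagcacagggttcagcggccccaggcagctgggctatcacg
Cidec start 1: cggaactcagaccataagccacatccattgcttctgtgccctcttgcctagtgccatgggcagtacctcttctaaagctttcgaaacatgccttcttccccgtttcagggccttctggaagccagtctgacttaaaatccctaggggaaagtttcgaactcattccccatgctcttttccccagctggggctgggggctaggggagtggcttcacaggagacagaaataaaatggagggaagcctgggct
Cidec start 2: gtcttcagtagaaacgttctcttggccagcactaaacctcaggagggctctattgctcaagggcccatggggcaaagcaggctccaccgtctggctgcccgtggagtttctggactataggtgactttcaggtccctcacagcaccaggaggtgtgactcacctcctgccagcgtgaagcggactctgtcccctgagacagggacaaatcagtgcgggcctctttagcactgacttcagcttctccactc
Plin2 held 1 match, 218 bases before the start and on the opposite strand. Such a match stood in 14% of the 32851 windows of this length in the table. The Cidec windows held none, and none of the 3 windows held the direct repeat AGGTCANAGGTCA (0.0335% of all windows) or the E-box CACGTG (6.02%), the 2 other motifs searched on both strands. Only exact matches within these 250 bases were searched, so sites that differ from the motifs or lie elsewhere would be missed. The counts are summed per gene and do not tell which Cidec start was used.

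**Figure D1:**
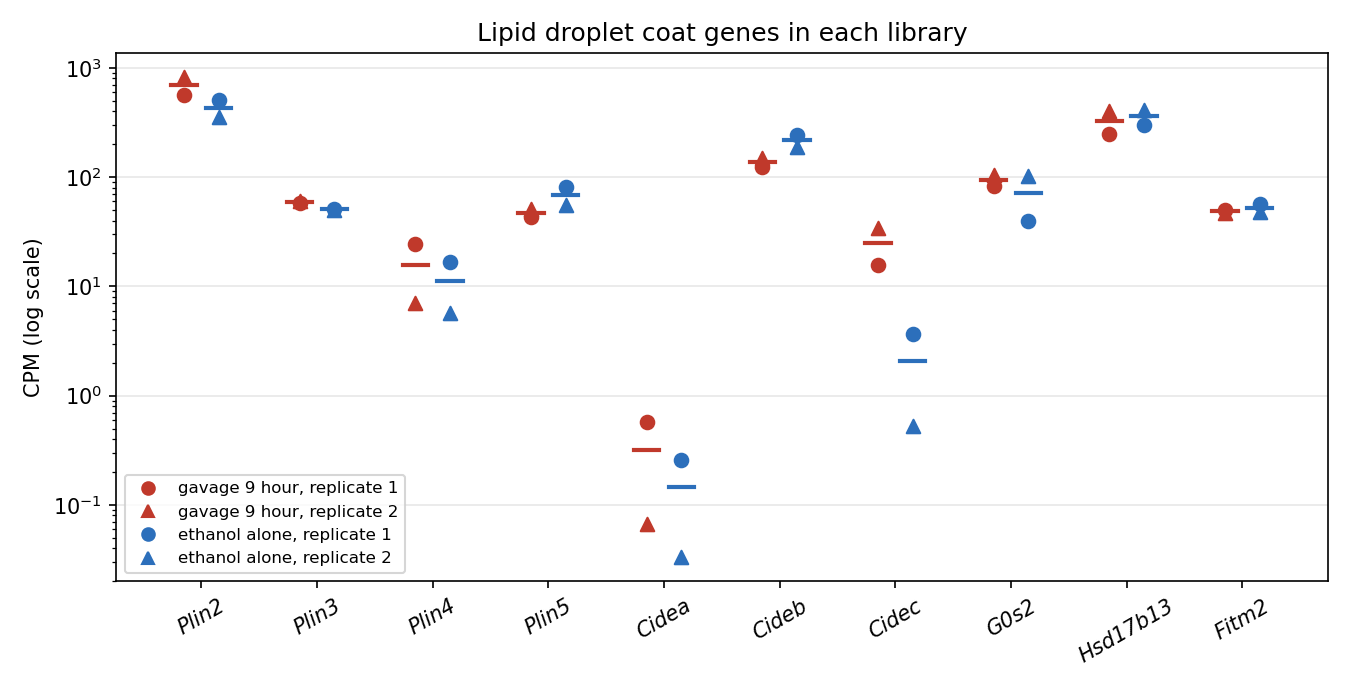
CPM on a log axis of the 10 coat genes in each library, with the gavage libraries in red left of the ethanol-alone libraries in blue, circles for replicate 1, triangles for replicate 2 and a line at each group mean. Cidec has the widest gap between the groups, at 24.8 against 2.09 CPM on average, while Plin4 and Cidea differ more between replicates than between groups.

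Library totals ran from 28791281 to 30347558 counts, and 3 counts corresponded to 0.0955 to 0.110 CPM. Alb, the albumin gene that marks hepatocytes, stood at 83277 and 99816 CPM after gavage and at 110898 and 100866 CPM with ethanol alone. Alb had a log2 fold change of -0.21. The lowest hepatocyte markers were Apoa2 at -1.12, Tat at -1.25 and Pck1 at -1.27, while Cps1 lay at 0.02. In all, 7 of 9 hepatocyte markers were lower after gavage without overlap of the groups, as were 27.2% of all tested genes. The groups overlapped for Cps1 and for Apoa1, which lay at -0.74. All 10 Kupffer cell markers, of the resident macrophages of the liver, were lower without overlap and summed to 382 and 420 CPM after gavage, against 693 and 636 CPM with ethanol alone. The 8 neutrophil markers summed to 17.8 and 6.41 CPM after gavage, against 4.94 and 4.43 CPM with ethanol alone. None of these marker genes was called by edgeR's quasi-likelihood test, and the part of such cells in the results that follow was not tested. The libraries numbered 1 in both groups carried messenger RNA of fat and muscle: the 7 skeletal muscle markers summed to 586 and 1.13 CPM in replicates 1 and 2 after gavage and to 309 and 9.75 CPM with ethanol alone. The 10 adipocyte markers summed to 238 and 70.9 CPM after gavage and to 159 and 58.8 CPM with ethanol alone, and 4 of them were at 0 in each replicate 2. Replicate 1 of ethanol alone also stood apart in 8 genes of male-type liver, which summed to 1465 CPM there and to 36.8 to 64.9 CPM in the other libraries. The sum of 8 genes of female-type liver was 188 CPM there, against 931 to 1879 CPM. Of these, Cux2 and A1bg were not lowest in that library, at 26.9 and 14.5 CPM. Cux2 had 14.4 CPM in replicate 1 of gavage, and A1bg 7.77 CPM in replicate 2 of gavage. Y-linked genes summed to at most 0.0366 CPM in any library.

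Cidec (chromosome 6, 113424634 to 113435760), a CIDE protein best known from fat cells and found in fatty liver of mice, had 15.7 and 33.9 CPM after gavage, against 3.66 and 0.529 CPM with ethanol alone. The groups did not overlap, and the lower gavage library stood 4.30 times above the higher library of ethanol alone, although the libraries of ethanol alone themselves differed 6.93-fold. The fitted log2 fold change was 3.57 (SE 0.91), the largest of the 9 coat genes tested, with an unadjusted p of 0.0104 and an adjusted p of 0.177 (edgeR's quasi-likelihood F-test, Benjamini-Hochberg over 13309 genes). That test called 0% of all genes and 0 of the 9 coat genes. At an unadjusted p under 0.05 it had 18.8% of all genes, and 2 of the 9 coat genes, Cidec and Cideb.

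Cidec was called by edgeR's likelihood-ratio test (adjusted p = 0.00978), which called 4.13% of all genes, and by DESeq2 (adjusted p = 0.048), which called 8.87%, and neither called another coat gene. Over all alternatives its log2 fold change ran from 2.70 without replicate 2 of ethanol alone to 5.51 without replicate 1 of that group, with adjusted p from 0.00978 to 0.385. After gavage the library with the most Cidec, replicate 2, had 0 counts of Plin1, Cfd, Lep and Retn and 2 counts of Adipoq. It also had 364 counts of Fabp4, 817 of Lpl, 621 of Pparg, 310 of Lipe and 20 of Slc2a4, the other adipocyte markers listed. With ethanol alone, replicate 1, which had 65 counts of Plin1 and 151 of Adipoq, held more Cidec than replicate 2, which had 0 of each. What part adipocyte transcripts had in the level of Cidec was not tested. The log2 ratio of gavage to ethanol alone was 2.10 within the libraries numbered 1 and 6.00 within those numbered 2, each from 1 library a group. In bulk liver, a change in the share of cells that carry a transcript and a change in its amount per cell cannot be told apart.

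**Figure D2:**
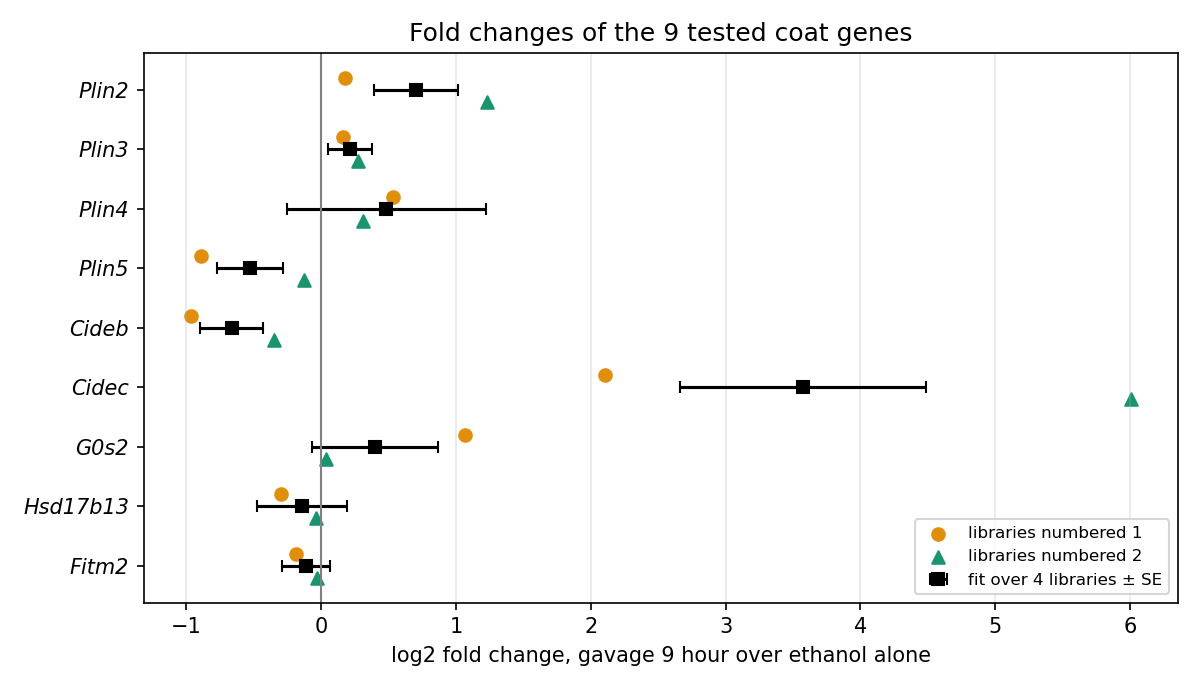
Log2 fold change of gavage over ethanol alone for the 9 tested coat genes. Black squares are the fit over 4 libraries with its SE, orange circles the log2 CPM ratio within the libraries numbered 1 and green triangles that within the libraries numbered 2. Cidec lies at 3.57 with ratios of 2.10 and 6.00, and the other fitted values lie between -0.66 and 0.70.

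Cideb (chromosome 14, 55754050 to 55758458), the member of the family found in hepatocytes, had 124 and 149 CPM after gavage, against 243 and 190.4 CPM with ethanol alone. Both gavage libraries lay below both libraries of ethanol alone. The log2 fold change was -0.66 (SE 0.24), with an unadjusted p of 0.0361 and an adjusted p of 0.242 in edgeR's quasi-likelihood test. The adjusted p was 0.0568 in DESeq2 and 0.321 in edgeR's likelihood-ratio test. Of the 1488 exon bases of Cideb, 1136 lie over exons of Nop9, a ribosome assembly gene on the other strand. No source used here states whether the counting used strand. If it did not, reads in that stretch cannot be told apart. Nop9 itself had 26.4 and 22.1 CPM after gavage, against 24.0 and 21.5 CPM with ethanol alone, with overlapping groups. Cidea (chromosome 18, 67343604 to 67367785), a CIDE gene known from brown fat and from fatty liver in mice, had 18 and 2 counts after gavage, against 7 and 1 counts with ethanol alone. It did not pass the filter on low counts and was not tested. Within each replicate number the gavage library held more counts of Cidea than the library of ethanol alone, but by only 1 count in replicate 2. The counts were higher in replicate 1 of each group, and those libraries also held the counts of Ucp1, the brown fat uncoupling protein, at 50 and 0 after gavage and at 1 and 0 with ethanol alone.

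Within the CIDE family, Cidec made up 9.17% and 15.4% of the summed CPM per kb of exon in the gavage libraries, against 1.19% and 0.222% with ethanol alone. Cideb made up 90.3% and 84.5% after gavage, against 98.7% and 99.7% with ethanol alone. Cideb remained the most abundant CIDE transcript in all 4 libraries. These shares divide by all 1488 exon bases of Cideb. If reads over Nop9 exons were left out of the counts, the shares understate Cideb and overstate Cidec. With 2 libraries against 2, an exact 2-sided permutation test cannot give a p below 0.333, so separate groups in such a share do not reach a threshold of 0.05.

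**Figure D3:**
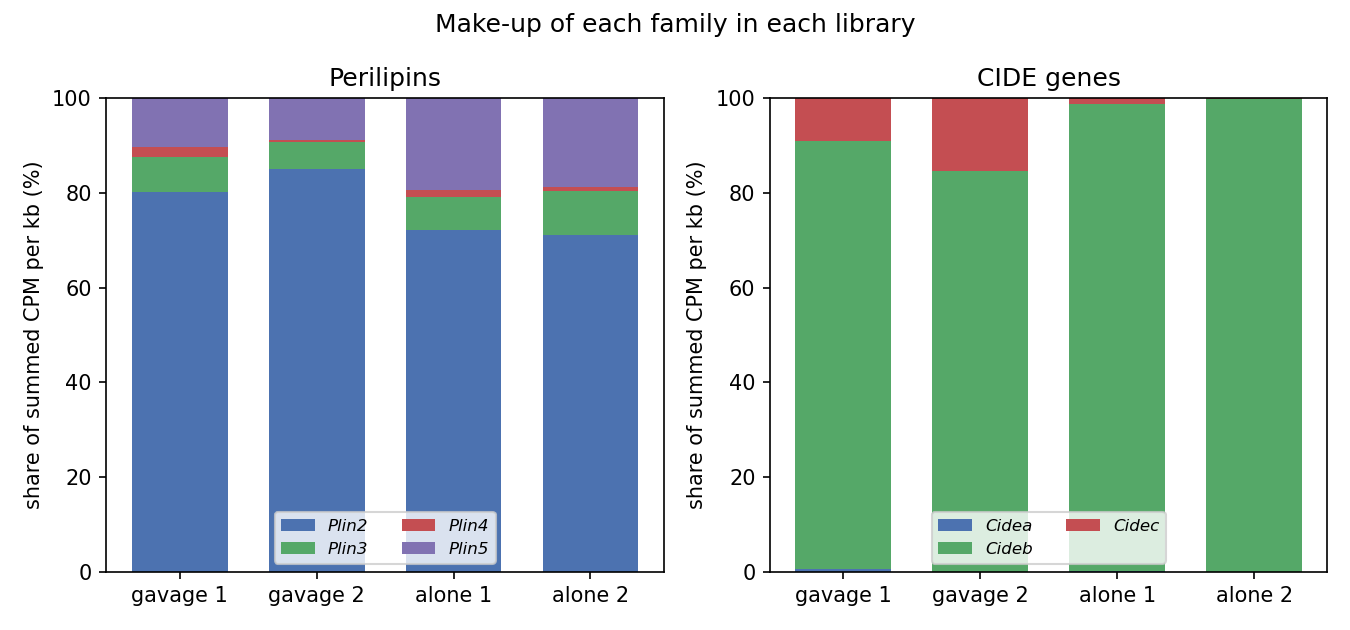
Stacked bars of the share of each gene in the summed CPM per kb of exon of its family, perilipins on the left and CIDE genes on the right, for gavage replicates 1 and 2 and then ethanol alone replicates 1 and 2. Plin2 takes 80.1% and 85.0% of the perilipin sum after gavage against 72.2% and 71.1% with ethanol alone, and Cidec is visible as a red band mainly after gavage. Cideb is scaled by all its exon bases, most of which lie over exons of Nop9.

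Plin2 (chromosome 4, 86648386 to 86670060), the perilipin that coats droplets in most cells and is protected from breakdown when bound to lipid, had 569.9 and 824 CPM after gavage, against 505 and 351 CPM with ethanol alone. The groups did not overlap, but replicate 1 of gavage lay only 1.13 times above replicate 1 of ethanol alone. The log2 fold change was 0.70 (SE 0.31), with an unadjusted p of 0.073 and an adjusted p of 0.303 in edgeR's quasi-likelihood test. It lay between 0.41 and 0.96 with each library left out in turn.

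Plin5 (chromosome 17, 56111601 to 56117596), a perilipin of tissues that burn fat, which links droplets to mitochondria and binds Pnpla2 and its activator Abhd5, had 43.6 and 50.8 CPM after gavage, against 80.8 and 55.3 CPM with ethanol alone. Both gavage libraries lay below both libraries of ethanol alone, and replicate 2 of the groups differed by little. The log2 fold change was -0.53 (SE 0.24; edgeR quasi-likelihood adjusted p = 0.314). The pattern of Plin5 over the 4 libraries was closest to that of Cideb, with a root-mean-square distance of 0.10 between their centred log2 CPM, the smallest of the 36 pairs of tested coat genes.

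Plin3 (chromosome 17, 56277476 to 56292873), a perilipin that moves from the cytosol onto new droplets, had 57.6 and 60.5 CPM after gavage, against 51.5 and 50.02 CPM with ethanol alone. The groups were separate and close, with a fitted log2 change of 0.22 ± 0.16 (SE; edgeR quasi-likelihood adjusted p = 0.503). Of the 9 tested coat genes, 3 stood higher and 2 lower after gavage without overlap of the groups, where 27.5% and 27.2% of all tested genes did so, 54.7% in all. The count of coat genes is thus near that of genes at large.

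Plin4 (chromosome 17, 56100591 to 56109803), a perilipin of adipocytes and muscle, had 24.4 and 7.04 CPM after gavage, against 16.8 and 5.68 CPM with ethanol alone. It followed the replicate number rather than the group, being 3.47-fold higher in replicate 1 than in replicate 2 after gavage and 2.96-fold higher with ethanol alone. The adipocyte and muscle sums given above were higher in the same libraries, and their part in Plin4 was not tested. Its fitted log2 fold change of 0.48 (SE 0.74; edgeR quasi-likelihood adjusted p = 0.756) became -0.67 without replicate 1 of gavage. The log2 ratio of gavage to ethanol alone for Plin4 was 0.54 within the libraries numbered 1 and 0.31 within those numbered 2. Plin1, the perilipin that defines fat cells and is not among the 10 genes, had 213 and 0 counts after gavage, against 65 and 0 counts with ethanol alone.

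**Figure D4:**
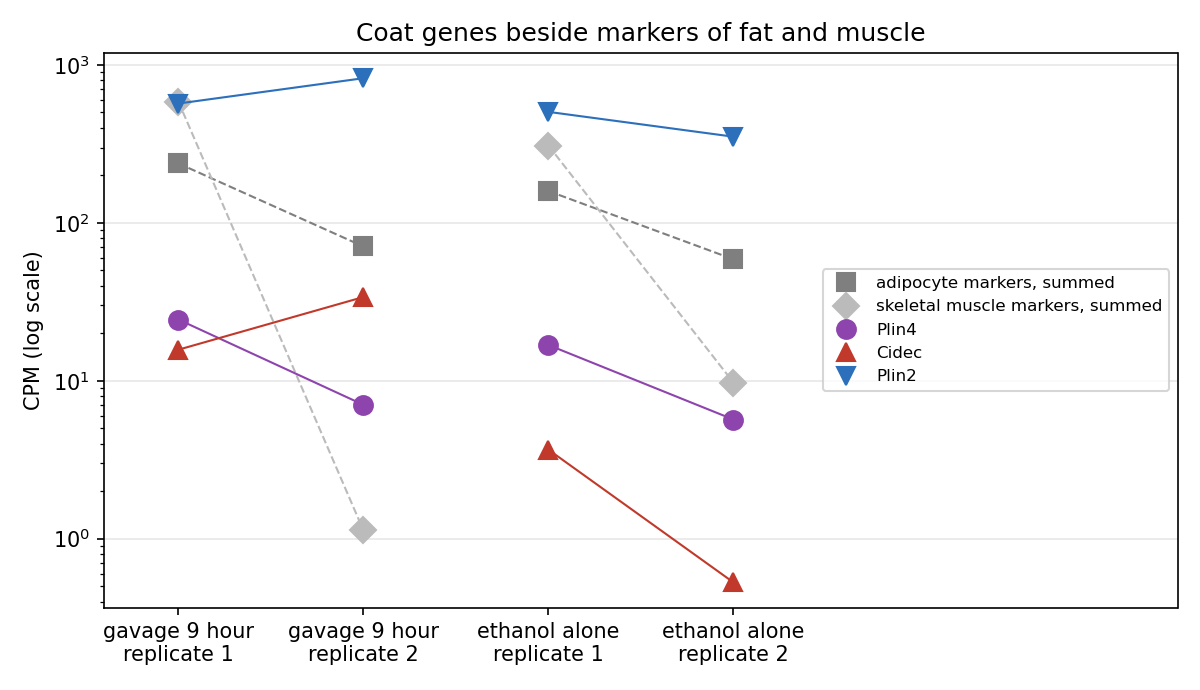
CPM on a log axis of Plin4, Cidec and Plin2 beside the summed CPM of 10 adipocyte and 7 skeletal muscle markers, in gavage replicates 1 and 2 and then ethanol alone replicates 1 and 2, with lines joining the replicates of a group. Plin4 and the marker sums are lower in replicate 2 than in replicate 1 of each group, while Cidec and Plin2 are higher in replicate 2 after gavage, at 33.9 and 824 CPM.

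Plin4 and Plin5 are neighbours 1797 bases apart on the minus strand, and Plin3 lies on the same strand of chromosome 17 with 7 protein-coding genes between it and Plin5. The 3 genes differed in pattern, with Plin4 split by replicate number, Plin5 lower and Plin3 slightly higher after gavage. Plin4 shares 17 exon bases with the end of Hdgfl2, on the other strand and listed under its older symbol Hdgfrp2, which had 22.1 and 21.6 CPM after gavage, against 31.4 and 28.2 CPM with ethanol alone. Per kb of exon, the perilipins summed to 203 and 276 CPM after gavage, against 199 and 141 CPM with ethanol alone. The share of Plin5 in that sum was 10.3% and 8.80% after gavage, against 19.5% and 18.8% with ethanol alone, the counterpart of the higher share of Plin2.

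G0s2 (chromosome 1, 193272161 to 193273217), the inhibitor of Pnpla2, had 82.8 and 106 CPM after gavage, against 39.5 and 103 CPM with ethanol alone. The groups overlapped, and the low value came from replicate 1 of ethanol alone, the library that stood apart in male-type liver genes. The log2 fold change of 0.40 (SE 0.47; edgeR quasi-likelihood adjusted p = 0.673) became -0.15 with replicate 1 of ethanol alone left out and 1.196 with replicate 2 left out. Within the libraries numbered 1 the log2 ratio of G0s2 was 1.07, and within those numbered 2 it was 0.04. Pnpla2 itself had 58.7 and 55.5 CPM after gavage, against 80.5 and 45.8 CPM with ethanol alone, with overlapping groups. Abhd5, the protein that activates Pnpla2, had 49.7 and 45.1 CPM after gavage, against 31.3 and 31.1 CPM with ethanol alone. The groups of Abhd5 were separate, with a log2 fold change of 0.60 (SE 0.16). In edgeR's quasi-likelihood test its unadjusted p was 0.0116 and its adjusted p 0.183. The adjusted p was 0.0444 in DESeq2 and 0.215 in edgeR's likelihood-ratio test.

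Hsd17b13 (chromosome 5, 103955440 to 103977410), a short-chain dehydrogenase, had 246 and 406 CPM after gavage, against 302 and 416 CPM with ethanol alone. It was higher in replicate 2 of each group, and the groups overlapped, with a fitted log2 change of -0.14 ± 0.33 (SE; edgeR quasi-likelihood adjusted p = 0.857). Its neighbour Hsd17b11, a related droplet protein whose gene lies 12351 bases away, had 71.2 and 123 CPM after gavage, against 183 and 191 CPM with ethanol alone. The groups of Hsd17b11 were separate, with a fitted log2 change of -0.94 ± 0.31 (SE). Its adjusted p was 0.225 in edgeR's quasi-likelihood test, 0.0342 in DESeq2 and 0.171 in edgeR's likelihood-ratio test. The difference between these 2 genes was not tested.

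Fitm2 (chromosome 2, 163466379 to 163472629), which acts where droplets bud from the endoplasmic reticulum, had 50.1 and 47.4 CPM after gavage, against 56.9 and 48.3 CPM with ethanol alone. The groups overlapped, with a fitted log2 change of -0.11 ± 0.18 (SE; edgeR quasi-likelihood adjusted p = 0.771). A transcript on the other strand, 2310001K24Rik, lies over 227 exon bases of Fitm2. Bscl2, the seipin gene that shapes the same budding sites, had 31.1 and 33.8 CPM after gavage, against 39.5 and 36.7 CPM with ethanol alone, with separate groups and an adjusted p of 0.463 in edgeR's quasi-likelihood test.

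Set side by side per kb of exon, the order of the coat genes differed between the groups. After gavage, Plin2 averaged 198 ± 51.2 CPM per kb, Hsd17b13 151 ± 52.4, G0s2 108 ± 18.5 and Cideb 91.9 ± 11.9 (SD, n = 2). With ethanol alone, Hsd17b13 averaged 166 ± 37.3 CPM per kb, Cideb 146 ± 24.9, Plin2 122 ± 30.9 and G0s2 81.8 ± 51.4 (SD, n = 2). The values of Cideb divide by all 1488 exon bases, of which 1136 lie over exons of Nop9. If reads there were left out of the counts, Cideb would stand higher, so its place in either order is uncertain. Neighbours among these 4 overlapped between libraries in either order, although both gavage libraries of Plin2 lay above those of G0s2 and Cideb. Plin5 followed at 22.6 ± 2.43 CPM per kb after gavage, against 32.6 ± 8.64 with ethanol alone, below the lowest library of the 4 genes above it and above every library of the 5 genes below it in each group. Cidec averaged 13.4 ± 6.93 CPM per kb after gavage, and its libraries, at 8.48 and 18.3, lay on either side of those of Plin3 and Fitm2. With ethanol alone it averaged 1.13 ± 1.19 CPM per kb and overlapped Plin4. Plin3 averaged 15.6 ± 0.526 CPM per kb after gavage, against 13.4 ± 0.279 with ethanol alone, and Fitm2 12.3 ± 0.468 against 13.3 ± 1.52. Plin4, at 2.72 ± 2.13 CPM per kb after gavage against 1.95 ± 1.37 with ethanol alone, and Cidea, at 0.287 ± 0.321 against 0.130 ± 0.142, were the lowest after gavage, and with ethanol alone Cidec stood between them. All 10 genes summed to 517 and 716 CPM per kb after gavage, against 564 and 592 CPM per kb with ethanol alone, with overlapping groups. The same limit on Cideb applies to these sums.

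Among 7858 genes averaging at least 10 CPM, those whose centred log2 CPM over the 4 libraries lay nearest to Cidec were Gnat1, Nrg4 and B3galt1, at root-mean-square distances of 0.885 to 1.17. None came close, since Cidec varied more within ethanol alone. For Plin2 the nearest were Pvr, Cdkn1a and Alkbh1, at distances of 0.035 to 0.049. With 4 libraries such likeness is a description only.

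The genes that act around the coat were read from lists, and none of their members passed edgeR's quasi-likelihood test after adjustment. Of 15 other droplet proteins, 6 stood higher and 9 lower after gavage, with a median log2 fold change of -0.22 against 0.02 for all tested genes, of which 51.7% stood higher. At an unadjusted p under 0.05, 1 was higher and 3 lower, where 8.91% of all tested genes were higher and 9.85% lower. Those were Rab18, a small GTPase of the droplet surface, at 142 ± 2.82 CPM after gavage against 102 ± 0.196 CPM with ethanol alone (SD, n = 2), and, lower, Hsd17b11, Fitm1 and the sterol enzyme Nsdhl. Fitm1, the relative of Fitm2 known from muscle, stood at 1.84 ± 0.124 CPM after gavage, against 4.49 ± 1.82 CPM with ethanol alone. Mettl7b, the most abundant of these genes, stood at 543 ± 64.6 CPM after gavage, against 631 ± 56.8 CPM with ethanol alone.

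**Figure D5:**
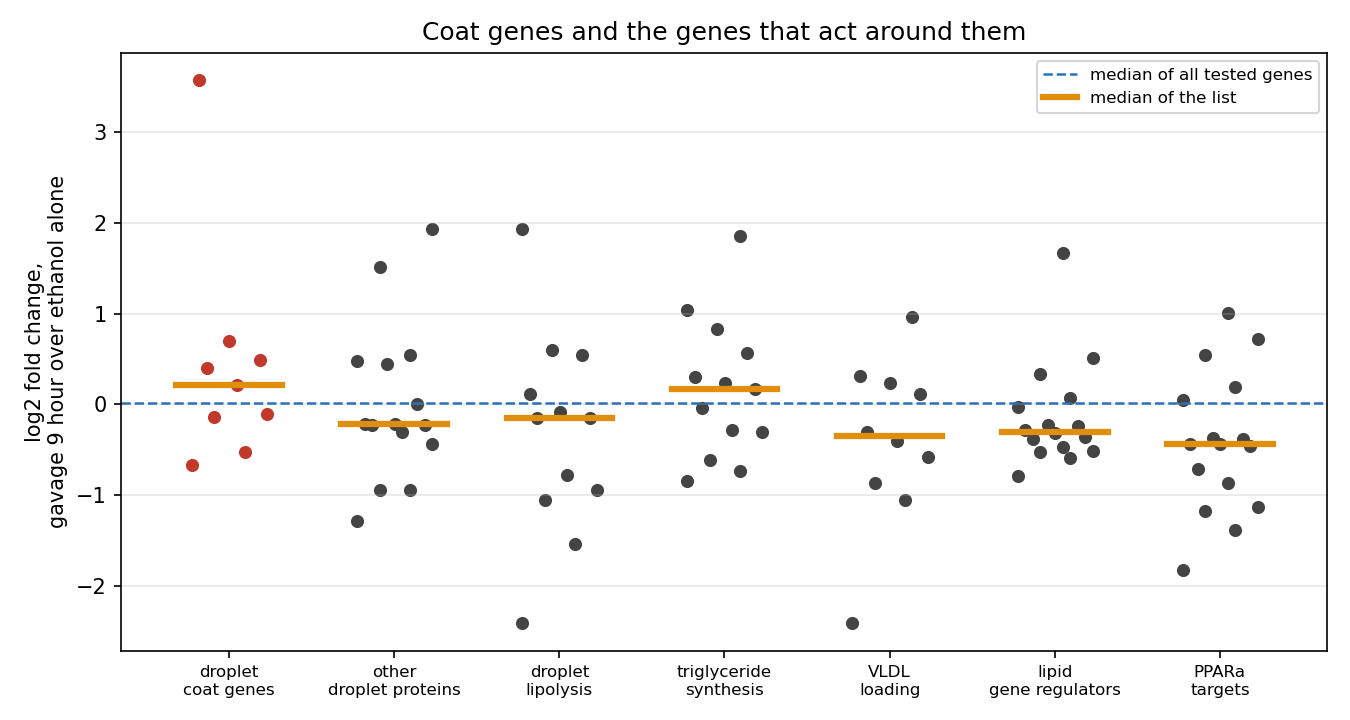
Log2 fold change of gavage over ethanol alone for each tested coat gene (red) and for each tested gene of 6 lists (grey), with the list median as an orange bar and the median of all 13309 tested genes, 0.02, as a dashed line. Medians of the 6 lists lie between -0.44 and 0.17, that of the coat genes lies at 0.22, and Cidec at 3.57 is the highest point.

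Of 12 genes of droplet lipolysis, 4 stood higher and 8 lower, with a median of -0.15. At an unadjusted p under 0.05, 1 was higher, Abhd5, and 5 lower, where 8.91% of all tested genes were higher and 9.85% lower. The 5 were Lipa, the acid lipase of lysosomes, at 239 ± 10.2 CPM after gavage against 411 ± 7.38 CPM with ethanol alone, and the carboxylesterases Ces1d, Ces1f, Ces1g and Ces3a. Macrophages also express Lipa, and the part of the lower Kupffer cell markers in it was not tested. Ces1d, the most abundant of this list and a triglyceride hydrolase of the liver, stood at 384 ± 45.2 CPM after gavage, against 796 ± 164 CPM with ethanol alone. Carboxylesterase genes lie in clusters of similar copies whose reads the counting could split. Lipe and Mgll, which act after Pnpla2 in fat breakdown, had log2 fold changes of -0.08 and 0.12 with overlapping groups. Hilpda, an inhibitor of Pnpla2 induced by low oxygen and fatty acids, had 2.48 and 3.35 CPM after gavage, against 2.16 and 1.85 CPM with ethanol alone.

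Pnpla3, a droplet lipase relative, had 37.4 and 6.18 CPM after gavage, against 5.27 and 6.11 CPM with ethanol alone. Its log2 fold change of 1.93 (SE 0.81; edgeR quasi-likelihood adjusted p = 0.281) came from replicate 1 of gavage. It was 0.12 without that library. The same library held the highest adipocyte marker sum, 238 CPM, and the part of adipocyte transcripts in Pnpla3 was not tested.

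Of 13 genes of triglyceride synthesis, 7 stood higher and 6 lower, with a median of 0.17, and 1 each way had an unadjusted p under 0.05 (8.91% and 9.85% of all tested genes, higher and lower). The higher was Gpat3, at 40.7 ± 16.8 CPM after gavage against 11.2 ± 6.46 CPM with ethanol alone, and the lower was Gpat4, at 97.8 ± 12.9 CPM after gavage against 162 ± 0.156 CPM with ethanol alone, both acyltransferases of the first step. Dgat2, which makes triglyceride in the last step and was the most abundant of the list, had 1131 and 788 CPM after gavage, against 612 and 679 CPM with ethanol alone. Its groups were separate, with a fitted log2 change of 0.57 ± 0.27 (SE; edgeR quasi-likelihood adjusted p = 0.326), while Dgat1 lay at -0.04 with overlapping groups.

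Of 16 regulators of lipid genes, 4 stood higher and 12 lower, with a median of -0.30, and 2 higher and 1 lower had an unadjusted p under 0.05 (8.91% and 9.85% of all tested genes). Pparg, the nuclear receptor of fat storage, of which Cidec is a known target gene in mouse liver, had 26.6 and 20.6 CPM after gavage, against 5.78 and 9.05 CPM with ethanol alone. The groups were separate, with a log2 fold change of 1.67 (SE 0.29), an unadjusted p of 0.00187 and an adjusted p of 0.133 in edgeR's quasi-likelihood test, and DESeq2 called it (adjusted p = 8.448e-05). Pparg is also one of the 10 adipocyte markers. Replicate 2 of the gavage group held 0 counts of Plin1 and Cfd and 364 of Fabp4 and 817 of Lpl, and the part of adipocyte transcripts in Pparg was not tested. Within ethanol alone Pparg was lower in replicate 1, where Cidec was higher. The others at that threshold were Mlx, at 44.3 ± 3.41 CPM after gavage against 31.2 ± 5.38 CPM with ethanol alone, and, lower, Foxo1, at 55.8 ± 2.19 CPM against 84.0 ± 19.5 CPM. Srebf1 had 163 and 140 CPM after gavage, against 152 and 287 CPM with ethanol alone. Mlxipl had 351 and 246 CPM after gavage, against 402 and 298 CPM with ethanol alone. Both had overlapping groups, with log2 fold changes of -0.53 for Srebf1 and -0.23 for Mlxipl. Ppara, the receptor that drives fat oxidation, had 168 and 126 CPM after gavage, against 107 and 125 CPM with ethanol alone, with groups set apart by less than 1 CPM.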

How the data were processed

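Messenger RNA of whole mouse liver was sequenced in 4 libraries, 2 per group, and titles gave the groups. The labels name Trizol extraction and both a TruSeq and a KAPA mRNA library kit. The authors deposited raw counts for each gene symbol. Tools in the submitters' processing notes are STAR 2.6.0a, bcl2fastq 2.20.0.422, HTSeq and edgeR, with the build GRCm38 and without their roles. No source used here states the annotation, the strand setting or the treatment of multiply mapped reads.

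Genes were kept by filterByExpr (minimum count 10, minimum total 15), which left 13309 genes and 9 of the 10 coat genes. The counts were tested with edgeR 4.0.16 (R 4.3.3), using TMM factors, the 2-sided quasi-likelihood F-test with no covariate, and Benjamini-Hochberg adjustment with a threshold of 0.05. CPM use TMM-scaled library sizes, and SE was derived from the log2 fold change and its F statistic (their ratio after taking the root of F). Library totals ran from 28791281 to 30347558 counts, and floors of 3 counts cover counting error only. Within each group the 2 libraries differed by more than sampling noise (chi-square per degree of freedom 157 after gavage and 147 with ethanol alone). On simulated counts of 13125 genes the test recovered 68 of 98 genes changed by 2 on the log2 scale and 95 of 97 changed by 4, with 8 false calls. Each simulated gene had only the spread fitted for its abundance, with no spread of its own and no likeness between same-numbered libraries. The real libraries differ in this, so these counts do not give the power of the test in them.

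Coordinates and exon lengths came from GENCODE M21 (GRCm38), matched by symbol, and sequences from RefSeq (GRCm38.p6), which held a promoter used here for 9 of the 10 genes. The 10 genes, the lists and the tests were chosen with earlier results of these data known. All 10 genes are named, with a fixed set of other droplet genes, the most abundant gene of each list and the nearest profiles; further list genes at an unadjusted p under 0.05 were named after their values were seen. The most abundant gene of one list is not reported here. Alternatives were DESeq2 1.42.0 or its size factors, library totals, no filter, edgeR's likelihood-ratio test, a replicate block and each library left out. Ratios within the libraries numbered 1 and within those numbered 2 were added after seeing the data.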

Additional observations from a re-analysis of the deposited data

How the results depend on the processing

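The count of 0 genes called became 1181 with DESeq2, 549 with edgeR's likelihood-ratio test and 410 with a replicate block, and ran from 0 to 31 with each library left out (31 without replicate 2 of the gavage group, 12 without replicate 2 of ethanol alone). The cause was not tested. The count of coat genes called became 1, Cidec, with DESeq2 and with the likelihood-ratio test, and was 0 under the replicate block, the other scalings, no filter and each library left out. The labels do not say what the replicate numbers mark, and the deviations of same-numbered libraries correlated at 0.587 across 13309 genes. Under the block Cidec had an adjusted p of 0.0642 and Pparg one of 0.0371 in edgeR's quasi-likelihood test. Without a given library a group keeps 1 library, which is assumed to vary like the others. Leaving out libraries turned the direction of Plin4 (-0.67 to 1.45), Hsd17b13 (-0.55 to 0.18) and G0s2 (-0.15 to 1.196), and of Pnpla2 (-0.55 to 0.29), Mgll (-0.077 to 0.26), Lipe (-0.50 to 0.24) and Dgat1 (-0.20 to 0.10). Plin1 ran from -8.12 to 9.71, fitted values that depend on the prior count because its replicate 2 libraries are at 0. Library totals turned Lipe to 0.009 and Dgat1 to 0.044, and moved the median of all genes from 0.02 to 0.10. Plin2, Plin3, Plin5, Cideb, Cidec and Fitm2 kept their direction under all 10 tested alternatives. The ratio of Plin2 was 0.18 within the libraries numbered 1 and 1.23 within those numbered 2. Those of Plin5 were -0.89 and -0.12, and those of Cideb -0.97 and -0.35. Plin4, at 0.54 and 0.31, G0s2, at 1.07 and 0.04, and Hsd17b13, at -0.30 and -0.03, did not change direction between these ratios. Leaving out a library also makes the replicate numbers unequal between the groups, so turns seen there can mix group with replicate number. Depth limits Cidea, which had at most 18 counts in a library.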

Other observations

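Genes that load triglyceride onto secreted lipoproteins were read from a list of 10, of which 4 stood higher and 6 lower after gavage, with a median log2 fold change of -0.35 and 0 called by edgeR's quasi-likelihood test. At an unadjusted p under 0.05, 1 was higher and 4 lower, where 8.91% of all tested genes were higher and 9.85% lower. Mttp, the transfer protein that lipidates apolipoprotein B, stood at 785 ± 111 CPM after gavage, against 401 ± 77.7 CPM with ethanol alone (SD, n = 2). Apob, the most abundant, stood at 9635 ± 4095 CPM after gavage, against 7768 ± 1838 CPM with ethanol alone, with overlapping groups. Those lower were Ces3a, Ces1d, Aadac, a hydrolase of the endoplasmic reticulum at 299.96 ± 31.5 CPM against 545 ± 162 CPM, and Pdia3. Ces3a and Ces1d are the same genes as in the list of droplet lipolysis. Ces3a differed widely within ethanol alone, at 165 ± 9.07 CPM after gavage against 880.5 ± 706 CPM.

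Plin2 is itself a known target of the nuclear receptor PPARa. Of 16 other target genes, 5 stood higher and 11 lower after gavage, with a median of -0.44, 0 called by edgeR's quasi-likelihood test. At an unadjusted p under 0.05 there were 0 higher and 4 lower, where 8.91% of all tested genes were higher and 9.85% lower. Acaa1b, a peroxisomal thiolase, stood at 221 ± 1.57 CPM after gavage, against 576 ± 62.2 CPM with ethanol alone. Ehhadh, the peroxisomal bifunctional enzyme, stood at 189 ± 4.84 CPM after gavage, against 413 ± 19.4 CPM with ethanol alone. Also lower at that threshold, with a wider spread, were Acot1 and Fabp1. Acot1 stood at 8.21 ± 6.48 CPM after gavage, against 29.1 ± 5.38 CPM with ethanol alone. Fabp1 stood at 1434 ± 112 CPM after gavage, against 3228 ± 1631 CPM with ethanol alone. The list median was -0.14 without replicate 1 of the gavage group and -0.80 without replicate 2, so its size depends on those libraries.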
